A study of Mus musculus with 8 samples.

Results

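Binding of TET1 was examined at the 3 Gadd45 genes and at Tcf21 in mouse embryonic stem cells. The genes were represented by fixed windows of build mm9, at Gadd45a (chr6:66970000-67003000), Gadd45b (chr10:80377000-80410000), Gadd45g (chr13:51927000-51959000) and Tcf21 (chr10:22520000-22560000). Every TET1 peak with at least 1 bp in a window was taken. Peaks of all libraries that overlapped or touched were merged, which gave 21 regions in the 4 windows, of 137027 regions in the whole series. The Gadd45b window held 12 of them, the Gadd45g window 5, the Tcf21 window 3 and the Gadd45a window 1. The data were chromatin immunoprecipitation and sequencing (ChIP-seq) of endogenous TET1 carrying an HA tag (genotype HA-Tet1). The series design names the line E14TG2a, and the sample labels give the strain C57BL/6N. Permeabilised cells were either mock treated or kept for 20 min with RNase H1 at 0.2 U/ul and Nuclease S1 at 0.05 U/ul, and then crosslinked. There were 3 libraries of each kind, and the treated ones are called nuclease-treated here, since the sample labels name RNase H1 alone while the protocol names both enzymes. All 6 libraries share the tagged allele, the permeabilisation and the antibody, and no library received 1 enzyme alone. Peak lists hold no expression values, so the cell type was not checked against its markers.

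GADD45A, GADD45B and GADD45G are small, closely related stress-inducible proteins without enzyme activity of their own that act as adaptors in active DNA demethylation. TET1 oxidises 5-methylcytosine, the first step of that demethylation, and binds mainly at CpG-rich promoters in embryonic stem cells. GADD45A binds R-loops, in which an RNA strand pairs with 1 DNA strand and displaces the other, and can recruit TET1 to them. TCF21, a basic helix-loop-helix factor of mesodermal development, is the best-known case: at the human gene the antisense transcript TARID forms an R-loop that GADD45A recognises. RNase H1 degrades the RNA of RNA-DNA hybrids and Nuclease S1 cuts single-stranded nucleic acid. The comparison asks whether TET1 on chromatin differs when both enzymes were present, and holds no measure of R-loops.

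The promoters of the 4 genes differ in CpG, the dinucleotide on which TET1 acts, and are shown for that reason. Each line gives the 250 bases before the RefSeq start on build GRCm38.p6, 5′ to 3′ on the gene's strand, with each CpG in capitals.
Gadd45a (chr6:67037408-67037657, minus strand): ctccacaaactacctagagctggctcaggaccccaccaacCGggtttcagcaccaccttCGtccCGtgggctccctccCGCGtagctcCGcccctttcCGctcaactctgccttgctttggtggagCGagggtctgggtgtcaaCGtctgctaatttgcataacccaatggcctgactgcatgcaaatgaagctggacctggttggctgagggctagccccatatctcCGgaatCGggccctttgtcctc
Gadd45b (chr10:80929841-80930090, plus strand): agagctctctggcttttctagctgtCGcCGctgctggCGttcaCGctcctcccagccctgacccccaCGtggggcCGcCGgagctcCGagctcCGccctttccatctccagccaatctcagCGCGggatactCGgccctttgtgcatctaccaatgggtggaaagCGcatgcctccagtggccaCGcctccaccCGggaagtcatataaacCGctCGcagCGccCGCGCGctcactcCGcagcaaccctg
Gadd45g (chr13:51846425-51846674, plus strand): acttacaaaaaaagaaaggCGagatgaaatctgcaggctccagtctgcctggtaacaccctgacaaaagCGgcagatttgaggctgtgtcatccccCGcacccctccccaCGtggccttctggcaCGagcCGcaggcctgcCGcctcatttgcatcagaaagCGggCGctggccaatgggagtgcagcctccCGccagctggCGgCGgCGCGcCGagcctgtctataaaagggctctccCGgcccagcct
Tcf21 (chr10:22820144-22820393, minus strand): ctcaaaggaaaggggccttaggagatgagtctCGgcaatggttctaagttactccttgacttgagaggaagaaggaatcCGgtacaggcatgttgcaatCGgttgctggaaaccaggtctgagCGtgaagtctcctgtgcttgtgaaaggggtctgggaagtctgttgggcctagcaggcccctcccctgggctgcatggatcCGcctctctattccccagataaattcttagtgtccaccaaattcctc
These positions are on another build than the peaks. No mm9 annotation was used here, so no peak was placed on a promoter, exon or intron. The printed stretches hold 22 CpG at Gadd45b, 16 at Gadd45g, 11 at Gadd45a and 5 at Tcf21. Over the full table window, which adds 50 bases after the start, the counts were 24, 21, 14 and 8, against a median of 7 in 32841 promoters. Gadd45b stood at percentile 80.0 of these promoters, Gadd45g at 75.2, Gadd45a at 63.7 and Tcf21 at 51.3. The excess of G over C on the gene's strand was 0.0875 of all G and C at Tcf21, which was percentile 70.0 of all promoters. It was negative at Gadd45a (-0.115), Gadd45b (-0.172) and Gadd45g (-0.0588). The window lies mostly before the start, so these values do not describe the gene's transcribed sequence and are no measure of R-loops. The octamer ATGCAAAT, bound by OCT factors, occurred on either strand 2 times at Gadd45a and 1 time at Gadd45g, where 1.74% of all promoters held it at least 1 time and 0.107% at least 2 times. It did not occur in the windows of Gadd45b and Tcf21. The box CCAAT was found 1, 2 and 1 times at Gadd45a, Gadd45b and Gadd45g (37.4% of all promoters), and TATAAA 1 time each at Gadd45b and Gadd45g (13.6%); neither was in the Tcf21 window. The motifs were chosen with the sequences at hand, and a match describes letters only. In the RefSeq gene table, a long noncoding RNA gene overlaps Gadd45a (E230016M11Rik) and another overlaps Tcf21 (Gm10824). Gadd45b lies between Lmnb2 and Gng7, and Gadd45g between Sema4d and Diras2, as the nearest protein-coding genes.

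The 6 peak lists held 62161 to 83601 peaks, each list called per library, with an input pooled over the replicates of that treatment. Genome-wide background coverage, recovered from the lists, was 1.929 to 2.253 fragments. Values below are the fragment coverage at a peak's summit divided by this level in the same library (times background). Median summit coverage was 16 to 18 fragments, which limits what any weak peak can show. The labels do not say whether replicates are separate cultures; p-values rest on the spread between these libraries, which may be technical.

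In the windows of the Gadd45 genes, TET1 coverage was lower after nuclease treatment at the regions found in every library. At the Tcf21 region it was also lower on average, but the difference lay within the replicate spread. Whether the genes differed in their change could not be decided with these libraries. Regions are credited to a window here, not to a gene. Of the 21 regions, 8 had a peak in every library: 1 at Gadd45a, 5 at Gadd45b, 1 at Gadd45g and 1 at Tcf21. A linear model of log2 coverage was fitted with limma over all 29613 such regions of the genome, with Benjamini-Hochberg adjustment over all of them. In it 7 of the 8 regions were called lower (limma, adjusted p under 0.05) and none higher. Genome-wide, 36.0% of the fitted regions were called lower and 0.206% higher. At 7 regions the groups did not overlap, with the treated libraries lower, which 44.7% of all fitted regions showed (1.39% with the treated libraries higher). The median log2 difference of the 8 regions was -0.60, and that of all fitted regions was -0.35. Among the fitted regions, both shares and differences varied with strength. A weak region that lost its peak in any library is not in the fit, and weak peaks rest on few fragments. How much of this dependence comes from these limits was not tested. Of the 10% of fitted regions with the highest mean coverage, 84.6% were called lower, against 14.0% in the 10% range that holds Tcf21. Compared with the median of their own 10% range, Gadd45a, the widest Gadd45b region and Gadd45g fell less, and the other regions fell more. When each library was centred on the median of all regions, 1 of the 8 stayed called lower, and the genome-wide calls changed from 10670 lower and 61 higher to 1371 lower (4.63%) and 494 higher (1.67%).

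**Figure D1:**
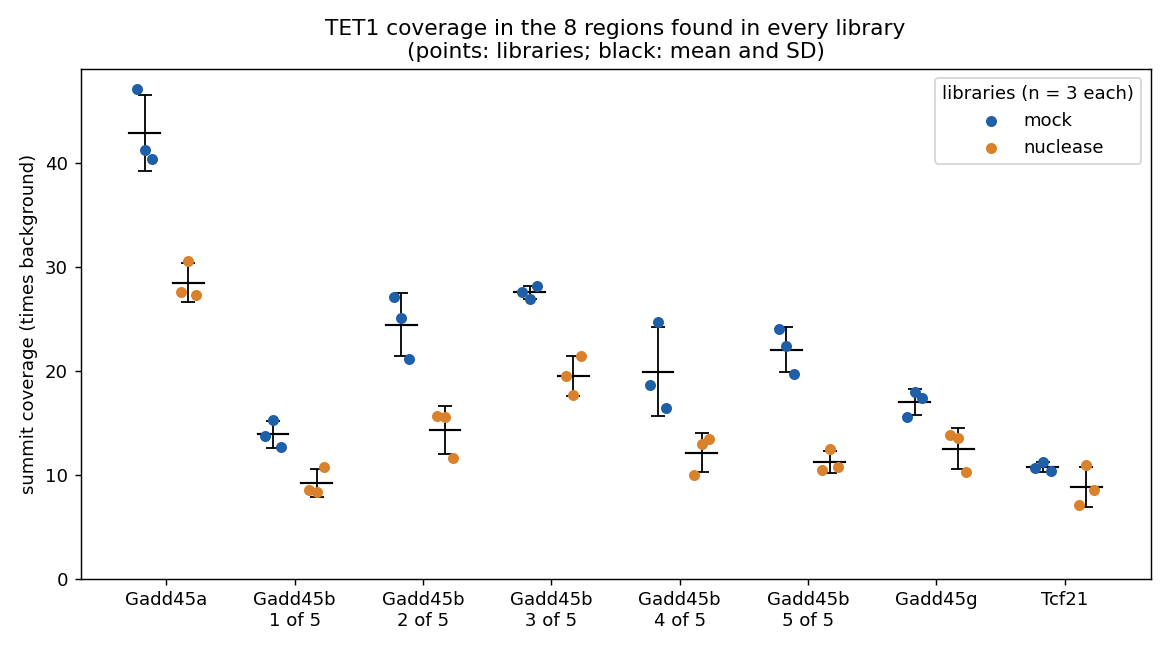
Summit coverage in times background (vertical axis) for the 8 regions found in every library, in genomic order within each gene window; points are the 3 mock and the 3 nuclease-treated libraries, black lines the mean and SD. The groups are apart at 7 regions and overlap at Tcf21, where nuclease-treated replicate 2 reached 10.9.

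Gadd45a carried a single strong and narrow TET1 peak. The region (chr6:66986339-66987614) had 106, 92 and 86 fragments at the summit in mock replicates 1, 2 and 3, which is 47.0, 41.2 and 40.4 times background. In nuclease-treated replicates 1, 2 and 3 it had 58, 59 and 61 fragments, or 27.6, 30.6 and 27.2 times background. Every treated library was below every mock library. The means were 42.9 ± 3.64 and 28.5 ± 1.85 times background (SD, n = 3 each), so that 0.664 of the mock coverage was found after treatment. The log2 difference was -0.59 (SE 0.137, limma adjusted p = 0.00125). In mock cells the region stood at percentile 99.5 among the 48273 regions called in every mock library. The position did not move: the summits of all 6 libraries lay within 75 bp of one another. The peak spanned 1207, 1206 and 1226 bp in the mock libraries and 974, 933 and 1077 bp after treatment, without overlap (exact two-sided permutation p = 0.1, the smallest that 3 libraries against 3 allow). Such a separation in the bases under peaks, with the treated libraries lower, was found at 3 of the 8 regions (Gadd45a, Tcf21 and the widest Gadd45b region) and at 30.7% of all fitted regions (1.58% with the treated libraries higher). At the other 5 regions, 4 at Gadd45b and the 1 at Gadd45g, the groups overlapped (exact permutation p = 0.2 to 0.5). Among the 10% of fitted regions with the highest mean coverage, the median log2 difference was -0.63 and 84.6% were called lower, so the value at Gadd45a was close to the median of regions of its strength. After centring, its log2 difference was -0.24 (limma adjusted p = 0.293). No other peak of any library lay in the Gadd45a window.

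Gadd45b lay in a domain of many TET1 peaks. The libraries had 11, 9 and 9 peaks in its window in mock and 9, 9 and 12 after treatment, which did not separate the groups (exact permutation p = 1). Peaks covered 11694, 12062 and 10748 bp of the window in mock, against 9190, 9962 and 8923 bp. Every treated library covered less than every mock library, on average 34.9% of the window in mock and 28.4% after treatment (exact permutation p = 0.1). Less sequence thus lay under called peaks, without a detectable difference in their number. Bases under peaks depend on coverage and on the threshold for calling, so they are not independent of the coverage values. No genome-wide share was computed for whole windows.

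**Figure D2:**
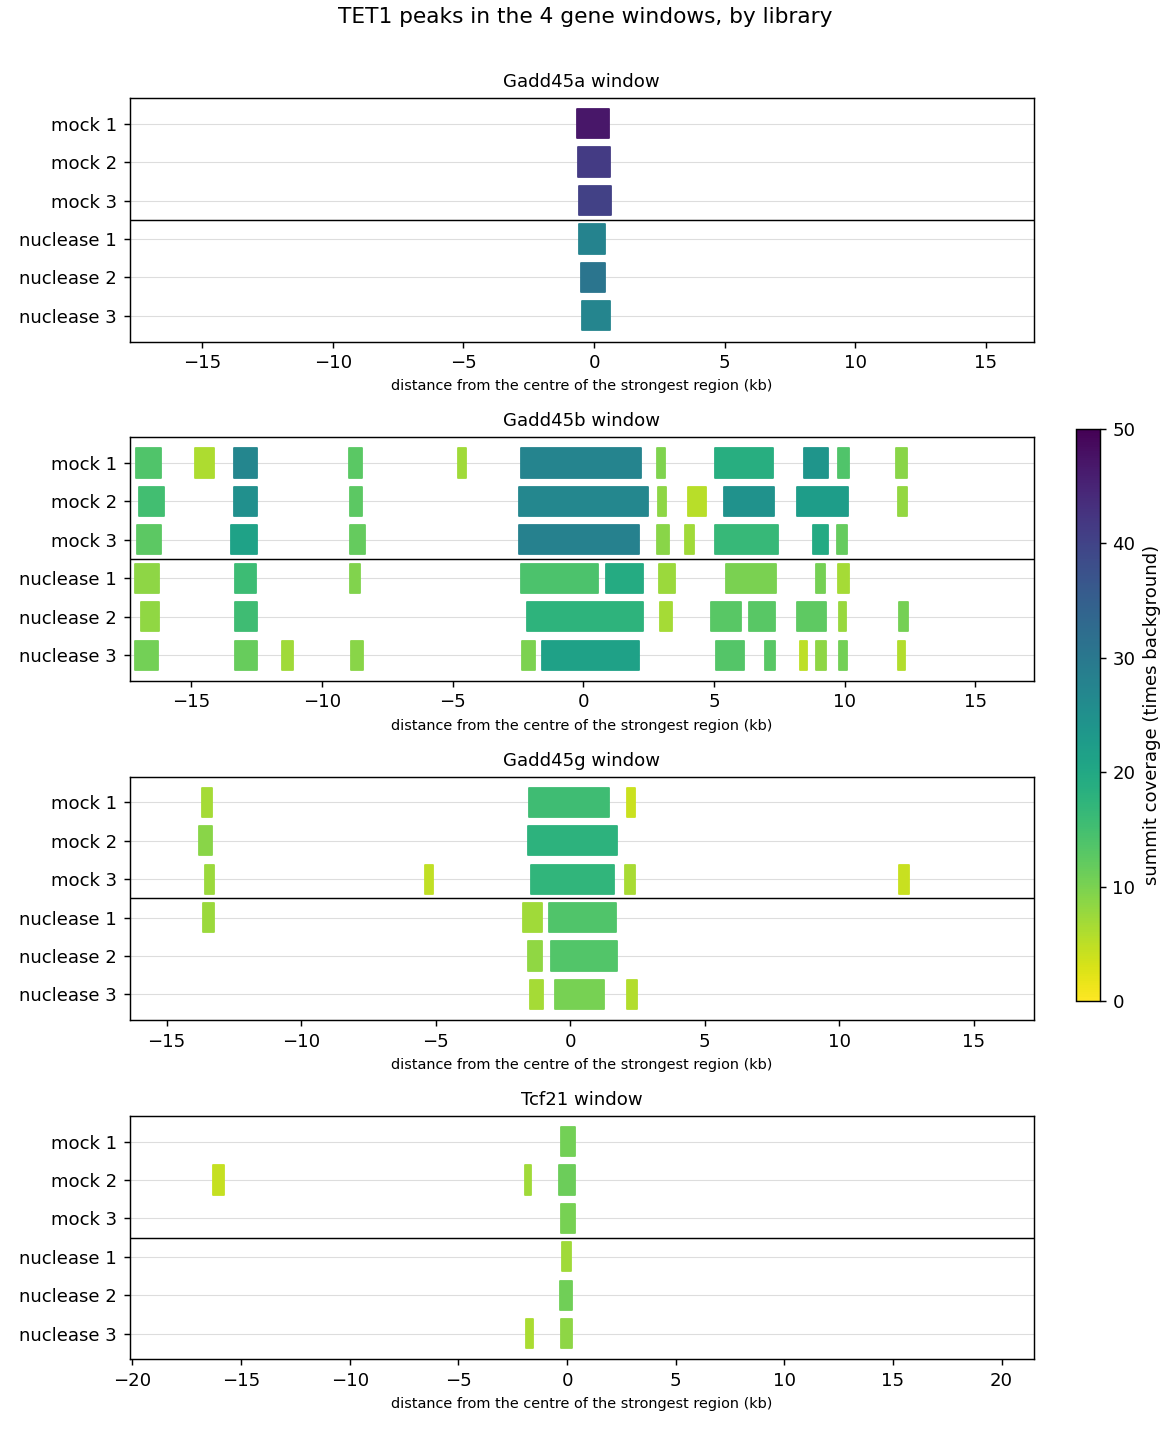
TET1 peaks of each library in the 4 windows, by distance in kb from the centre of the strongest region of the window (horizontal axis); each bar is 1 peak as deposited, and its colour is the summit coverage in times background. Gadd45a and Tcf21 each show 1 region found in all libraries, with weaker peaks of single libraries in the Tcf21 window. Gadd45b shows a series of 5 regions found in all libraries with weaker ones between. The central Gadd45g peak is in 2 pieces in each nuclease-treated library.

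The widest of the Gadd45b regions (chr10:80391091-80396044) spanned 4954 bp and was the strongest. It reached 27.5, 26.9 and 28.2 times background in mock and 19.5, 17.6 and 21.4 after treatment, without overlap between the groups. The log2 difference was -0.50 (SE 0.151, limma adjusted p = 0.00969), and it was -0.43 without nuclease-treated replicate 2 (limma adjusted p = 0.0537). Like Gadd45a it belongs to the 10% of regions with the highest coverage, whose median log2 difference was -0.63. The 3 mock libraries each had 1 unbroken peak here, with summits between 80394674 and 80394735. Of the treated libraries, replicate 2 also had 1 peak, while replicates 1 and 3 had 2 peaks, parted by gaps of 299 and 265 bp at different places.

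The other 4 Gadd45b regions found in every library had larger log2 differences than this one, from -0.60 to -0.97; whether regions differed in their change was not tested. The region at chr10:80401729-80403740 had 24.0, 22.4 and 19.7 times background in mock and 10.5, 12.4 and 10.7 after treatment. Its log2 difference of -0.97 (SE 0.171, limma adjusted p = 8.52e-05) was at percentile 3.40 of all fitted regions, counted from the largest fall. The 10% of regions of like mean coverage had a median log2 difference of -0.55, and 64.4% of them were called lower. It was the 1 region of the 4 windows still called lower after centring, at -0.62 (limma adjusted p = 0.0282). It stayed called lower in all 14 alternatives tried. The highest point of this region lay between 80402609 and 80402672 in the mock libraries and in treated replicates 1 and 2, and at 80403505 in treated replicate 3, whose peak at the mock summit had 8.49 times background. This region was in pieces without treatment too: mock replicates 1 and 3 had 2 peaks, with gaps of 410 and 324 bp, mock replicate 2 had 1, and treated replicates 1, 2 and 3 had 2, 2 and 3. The local background under the summit was also higher there after treatment, at 1.62 ± 0.191 times the genome-wide level against 1.02 ± 0.0202 (SD, n = 3 each); its part in the result was not tested, and the coverage over genome-wide background does not use it.

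The region at chr10:80380087-80381090 had 27.1, 25.1 and 21.1 times background in mock and 15.7, 15.6 and 11.6 after treatment, with a log2 difference of -0.78 (SE 0.170, limma adjusted p = 0.000689). That at chr10:80398447-80401032 had 18.6, 24.6 and 16.4 in mock and 9.98, 13.0 and 13.4 after treatment, with a log2 difference of -0.71 (SE 0.185, limma adjusted p = 0.00331). The mock libraries each had 1 peak over this region, and treated replicates 2 and 3 had 2, with gaps of 288 and 798 bp that overlapped. The 1 remaining region (chr10:80376388-80377498) reaches over the window's edge. It had 13.8, 15.2 and 12.7 times background in mock and 8.55, 8.29 and 10.7 after treatment, and its log2 difference was -0.60 (SE 0.194, limma adjusted p = 0.0154). This call was lost without mock replicate 2, nuclease-treated replicate 1 or nuclease-treated replicate 2 (limma adjusted p = 0.0721, 0.0552 and 0.0645). After centring, none of these 3 regions was called (limma adjusted p = 0.117, 0.234 and 0.449, in the order given). In the ranges of mean coverage to which these regions belong, 77.3%, 64.4% and 33.4% of all regions were called lower, in the same order (each range holds 10% of the fitted regions).

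The remaining 7 regions of the Gadd45b window were not present in every library. The strongest of them, at chr10:80384579-80385214, had 12.9, 12.5 and 11.7 times background in mock, 9.50 and 8.93 in treated replicates 1 and 3, and no peak in treated replicate 2. The authors' fold enrichment of this peak, which is relative to the local background, went from 8.44, 8.28 and 7.66 to 3.04 and 3.11. The local background there was 1.12 to 1.13 times the genome-wide level in mock and 2.80 and 2.57 times in the treated libraries with a peak, and its part in the missing call was not tested. A region next to the widest one (chr10:80396370-80397081) had 9.76, 8.51 and 8.92 in mock, 7.60 and 6.74 in treated replicates 1 and 2, and no peak in treated replicate 3. A region at chr10:80405527-80405983 had a peak in mock replicates 1 and 2, at 8.88 and 8.06 times background, and in treated replicates 2 and 3, at 10.4 and 5.81. In a fit that needed a peak in 2 libraries of each group, none of these 3 regions was called: their log2 differences were -0.43, -0.34 and -0.13 (limma adjusted p = 0.168, 0.349 and 0.814). One at chr10:80397446-80398266 was called in mock replicates 2 and 3 alone, at 5.38 and 7.04. The last 3 regions had a peak in a single library, at 6.21 and 7.10 in mock replicate 1 and at 7.15 in treated replicate 3.

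Gadd45g had 1 wide TET1 region (chr13:51940826-51944315) and a few weak ones. The wide region reached 15.5, 17.9 and 17.4 times background in mock and 13.8, 13.5 and 10.3 after treatment. The groups did not overlap, with means of 16.9 ± 1.25 and 12.5 ± 1.94 (SD, n = 3 each). The log2 difference was -0.45 (SE 0.179, limma adjusted p = 0.0494), just under the threshold. The call was lost without any 1 of the 6 libraries (limma adjusted p from 0.0513 to 0.238) and with the replicate number as a block (limma adjusted p = 0.0522). It held in 3 of the 14 alternatives tried. After centring, the log2 difference was -0.09 (limma adjusted p = 0.784). Regions of like mean coverage, the same 10% as for the Gadd45b region with the largest difference, had a median of -0.55.

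The Gadd45g region was split after treatment. Each mock library had 1 unbroken peak over it, of 2967, 3289 and 3099 bp. Each nuclease-treated library had 2 peaks, parted by gaps of 286, 355 and 454 bp that shared the 233 bp at chr13:51941571-51941803. Of all fitted regions, 262 (0.885%) had 1 peak in every mock library and 2 or more in every treated one, and 38 (0.128%) the reverse. Among the 222 regions of 3 kb or wider with 1 peak in each mock library, 46 (20.7%) were split in this way. The smaller piece after treatment had 7.13, 8.29 and 6.70 times background, and the larger 13.8, 13.5 and 10.3. The mock summits were scattered over 2267 bp, at 51941273, 51942745 and 51943540, while the treated summits lay at 51943501, 51943419 and 51943464. A gap between called peaks means coverage below the caller's threshold there, not that no fragment was present.

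Away from it, a Gadd45g region at chr13:51928795-51929350 had a weak peak in all 3 mock libraries, at 6.66, 8.96 and 7.51 times background, and among the treated libraries only in replicate 1, at 7.60. A region next to the wide one (chr13:51944615-51945075) had a peak of 3.99 and 6.57 times background in mock replicates 1 and 3 and of 5.81 in treated replicate 3. Bases under peaks in the whole window were 3676, 3762 and 4457 in mock and 3588, 2938 and 2662 after treatment (exact permutation p = 0.1). The number of peaks was 3, 2 and 5 in mock and 3, 2 and 3 after treatment (exact permutation p = 0.9), of which mock replicate 3 alone accounted for 2 single-library peaks of 4.69 and 4.22 times background.

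Tcf21 had 1 TET1 peak found in every library, of middling strength (chr10:22538972-22539691). It had 24, 25 and 22 fragments in the mock libraries, which is 10.7, 11.2 and 10.3 times background. After treatment it had 15, 21 and 19 fragments, or 7.13, 10.9 and 8.49 times background. Replicate 2 of the treated libraries lay within the mock range, so the groups overlapped (exact permutation p = 0.3). The log2 difference was -0.30 (SE 0.208, limma adjusted p = 0.271), with a 95% interval from -0.73 to 0.12 that includes both 0 and the values at Gadd45a and Gadd45g. All 13 alternatives tried left it uncalled, with limma adjusted p from 0.134 to 0.903, and centring turned its sign, to 0.05. The size rested on single libraries: the log2 difference was -0.16 without nuclease-treated replicate 1 and -0.46 without nuclease-treated replicate 2. In mock cells the region stood at percentile 53.8, and 14.0% of the regions in its 10% range of mean coverage were called lower, with a median log2 difference of -0.23. It spanned 638, 716 and 617 bp in mock and 414, 563 and 521 bp after treatment, without overlap (exact permutation p = 0.1).

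A second Tcf21 region (chr10:22537378-22537765) lay close to the main one and had a peak in mock replicate 2, at 7.17 times background, and in treated replicate 3, at 6.25. The last region had a peak in mock replicate 2 alone, at 4.48. Peaks covered 638, 1530 and 617 bp of the window in mock and 414, 563 and 865 bp after treatment (exact permutation p = 0.5), and the high mock value is that of replicate 2 with its 2 extra peaks. The mean difference of -314 bp became -13.5 bp without that library. With a stricter threshold on the peaks (−log10 q of at least 5) it was -401 bp and the groups did not overlap (exact permutation p = 0.1). That threshold removed the only peak of treated replicate 1, at a −log10 q of 4.77, and left that library without bases under peaks. It also removed the weakest peak of mock replicate 2 and the weaker peak of treated replicate 3.

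Ordered by the strongest region of each window, coverage in mock cells ran from Gadd45a (42.9) over Gadd45b (27.5) and Gadd45g (16.9) to Tcf21 (10.7 times background). No neighbours in this order overlapped between libraries. After treatment the order was the same, at 28.5, 19.5, 12.5 and 8.83, and the ranges of Gadd45g and Tcf21 overlapped. Gadd45a had 4.00 times the coverage of Tcf21 in mock and 3.22 times after treatment. Whether the genes differed in their change was tested on the log2 ratio of their strongest regions in each library, for the 6 pairs of genes. Gadd45a fell by 0.29 more than Tcf21 on the log2 scale (exact two-sided permutation p = 0.2). The other 5 pairs differed by 0.05 to 0.20 with exact permutation p of 0.4 to 0.9. The smallest p that 3 libraries against 3 allow is 0.1, so no pair could be called different. The 2 groups overlapped for every pair. These libraries therefore cannot decide whether the strongest regions of the Gadd45 windows and of Tcf21 differed in their change. For Gadd45b that region had the smallest log2 difference of the 5 found in every library, and the others were not set against Tcf21. The 7 regions of the Gadd45 windows found in every library were called lower, and the Tcf21 region was not.

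**Figure D3:**
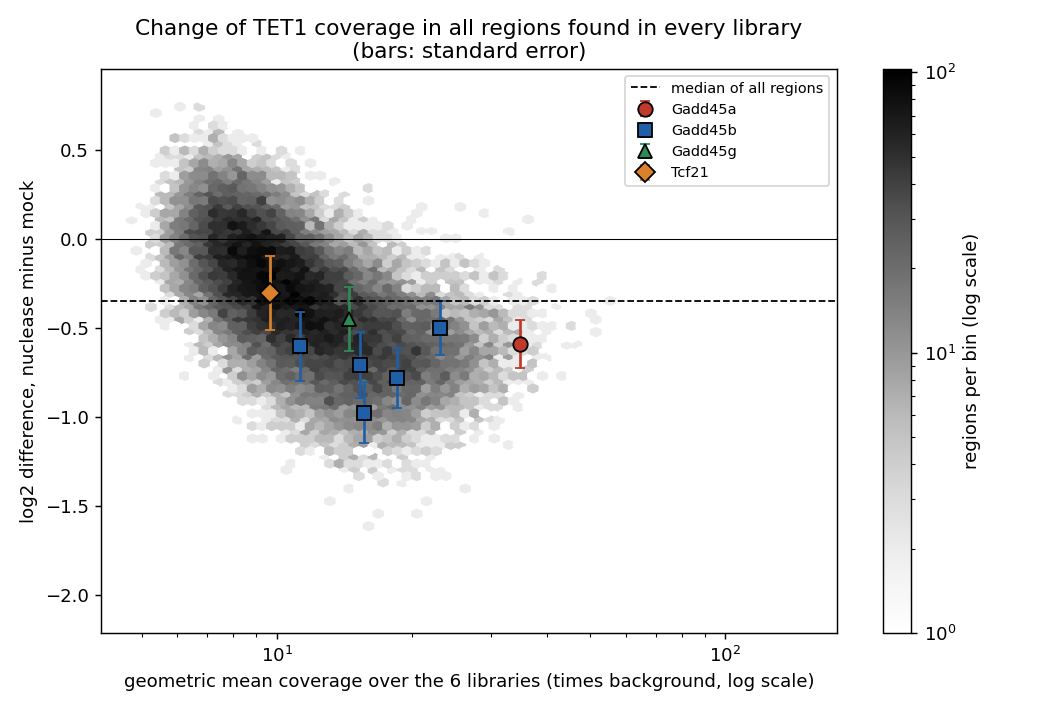
Log2 difference of coverage, nuclease-treated minus mock (vertical axis), against the geometric mean coverage of the 6 libraries in times background (log axis), for all 29613 regions found in every library (grey bins) and the 8 regions of the 4 windows (symbols with standard errors). The dashed line is the median of all regions, -0.35; Gadd45a lies at the strong end with a difference of -0.59, and the lowest of the Gadd45b symbols is at -0.97.

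Of the 11 regions called in every mock library, 3 lacked a peak in 1 or more treated libraries, and none lacked one in all 3. Genome-wide the shares were 38.7% and 6.67% of such regions. With only 11 regions, a departure from these shares was not tested. In the other direction, all 8 regions found in every treated library were found in every mock library as well. Single-library regions numbered 6, of which 5 were in a mock library, and had 4.22 to 7.15 times background. Genome-wide 34.0% of regions were found in a single library. Shares over all regions were not computed for these 5, nor for the 8 found in every treated library. Neither count can therefore be read as particular to these windows. The mock lists were mostly longer, with 73602 to 83601 peaks against 62161 to 74404.

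The local background that the peak caller used was on average higher in the treated libraries at 7 of the 8 regions, the exception being the Gadd45b region at the window's edge. The same held for 82.6% of all fitted regions. At Gadd45a it was 1.29 ± 0.00647 times the genome-wide level in the mock libraries, against 2.06 ± 0.0406 in the treated ones (SD, n = 3 each). The authors' fold enrichment of that peak had means of 24.9 ± 2.15 (mock) and 11.4 ± 0.494 (treated; SD, n = 3 each), a steeper drop than that of the coverage. Since 1 input served the 3 libraries of a treatment, their local backgrounds are not independent, and the part of the input in the difference in fold was not tested. Times background leaves the input out of the value, though not out of the decision to call a peak.

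**Figure D4:**
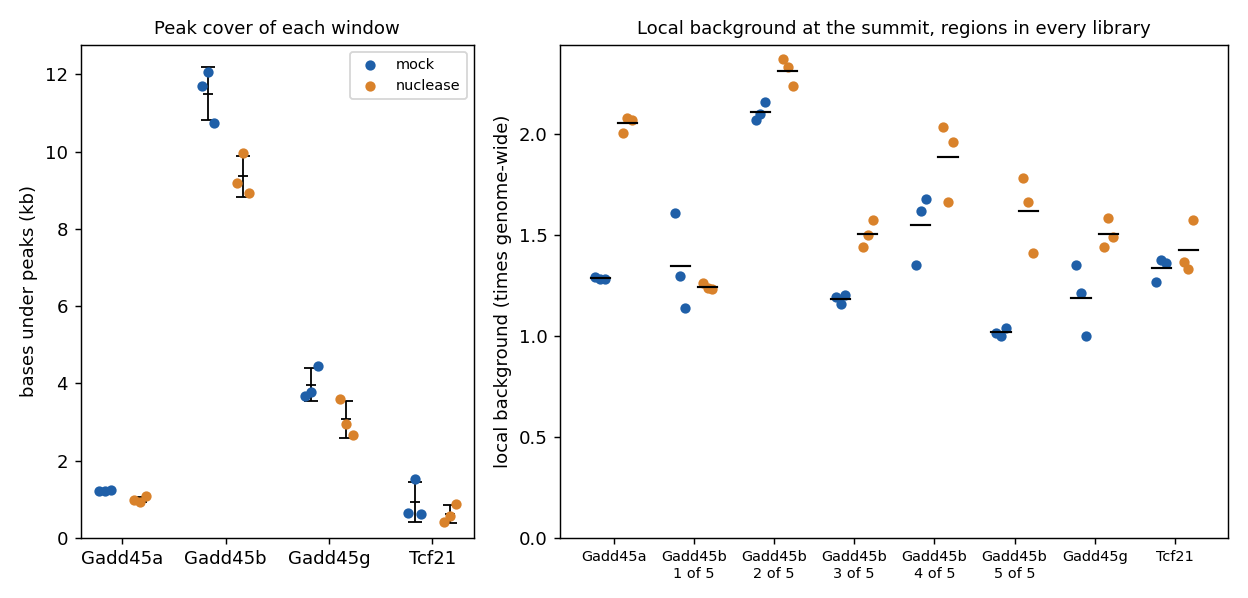
Left, kb of each window under peaks; right, local background at the summit in times the genome-wide level for the 8 regions found in every library. Points are libraries (3 mock, 3 nuclease-treated); black marks are the mean, with SD in the left panel only. Peak cover of the groups is apart at the 3 Gadd45 genes and overlaps at Tcf21 with the peaks as deposited, and local background at Gadd45a is 1.29 in mock against 2.06 after treatment.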

How the data were processed

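TET1 was mapped by ChIP-seq in 3 mock and 3 nuclease-treated libraries; the 2 pooled inputs are not analysed here on their own. The submitters' processing notes list MACS2 2.1.1 for peaks, Bowtie2 2.2.8 and the build mm9; settings: not given in the sources used here. The authors deposited 1 peak list per library. Each peak has a fold (a ratio over local background), a p-value and a q-value as −log10, and a summit position. The authors' lists also hold a score, which by the values is the −log10 q multiplied by 10 and truncated.

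Summit coverage and local background were solved from the deposited fold and p with MACS2's formulas (Python 3.11.15). In each list at least 99.9986% of peaks gave a whole number of fragments, with a tolerance of 0.001 on −log10 p. Genome-wide background is the most frequent local background. Group means were compared by exact two-sided permutation tests (20 label orders). limma 3.58.1 fitted log2 coverage, without a pseudocount and with a trend in the prior variance, over regions with a peak in all 6 libraries, so a region lost from 1 library is not in that fit. Both steps were run on simulated data. For limma these held changes in a small share of regions and in both directions, unlike the broad fall seen here. They therefore do not test the calls under such a fall. Alternatives were a stricter q (−log10 q of at least 5), a local background of at most 2 times the genome-wide one, other windows, merging, scaling and filters, the authors' fold, a replicate block, and leaving out each library.

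Groups came from the sample titles. The text gives values for every region that overlaps a window, with coordinates except for those found in a single library. Members, windows and tests were chosen with earlier results of these data known. The comparison between genes, the splitting and width of single peaks, the 95% interval and the motifs were added after these values were seen. Other pathway genes are not analysed here, as no mm9 annotation was used.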

Additional observations from a re-analysis of the deposited data

How the results depend on the processing

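Of 108 values of the 8 regions recomputed under the alternatives, 87 kept their direction and their side of the threshold, 20 lost the call and 1 changed sign. The measures per window cannot pass 0.05 in any setting (the smallest exact permutation p is 0.1, or 0.2 with a library left out), so only their direction and size can be compared. The number of peaks per window was the least stable measure. Its difference, nuclease-treated minus mock, was 0.333 at Gadd45b, and became -1.67 with the stricter q, -1 with the limit on local background and 0 with at least 50% of a peak inside the window. With the windows shortened by 5 kb it was 0.333 at Gadd45g (-0.667 otherwise) and 0 at Tcf21 (-0.333 otherwise). At Gadd45a the limit on local background removed the peak from all 3 treated libraries, a difference of -1. Leaving out 1 library gave -0.667 (without nuclease replicate 3) to 1 at Gadd45b, -1.33 to 0.167 (without mock replicate 3) at Gadd45g, and -0.667 to 0.333 (without mock replicate 2) at Tcf21. Genome-wide, 10670 regions were called lower (limma). The limit on local background gave 4935 of 20969 regions fitted, the authors' fold 16411 and centring 1371. The 61 called higher became 17 with the stricter q, 34 with the limit on local background, 494 with centring, 96 without the trend and 162 with a peak needed in 2 libraries of each group. Leaving out 1 library gave 8364 to 10113 lower and 45 to 144 higher, the last without mock replicate 3. Centring turned the log2 difference of the Tcf21 region to 0.052. Where a cause is not given by the setting itself, it was not tested. Labels number the replicates 1 to 3 in both groups, but same-numbered libraries did not deviate together (correlations 0.0134, -0.0049 and 0.0379 over 29613 regions). With the replicate number as a block, 10744 regions were called lower and 65 higher, and among the 8 regions only the Gadd45g call was lost (limma adjusted p = 0.0522). Summits of 16 to 18 fragments limit the precision of weak peaks.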
